A study of Mus musculus with 24 samples.

Results

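Gut smooth muscle genes are described here as 10 genes in the distal jejunum of 24 mice: Acta2, Actg2, Myh11, Tagln, Des, Cnn1, Myl9, Synpo2, Smtn and Lmod1. The members were found by gene symbol, and each matched 1 of the 34471 genes listed with a count in at least 1 library. The bulk RNA-seq data come from 8 groups of 3 mice, with 1 library per mouse: males and females, wild type or Ptk6-/-, kept as controls or given succinate at 100 mM over 7 days. The Ptk6-/- mice carry a germline disruption of the tyrosine kinase gene Ptk6 in every cell and were backcrossed to C57BL/6 for more than 20 generations, and all mice were 9 to 11 weeks old at the end of the experiment. The groups used below were male wild type control, male wild type succinate, male Ptk6-/- control, male Ptk6-/- succinate, and the corresponding 4 groups of females. Mice were age-matched and came from different litters of 1 colony.

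The wall of the small intestine is wrapped by an outer longitudinal and an inner circular layer of smooth muscle beneath the mucosa, with a thin muscle sheet under the epithelium, and contraction of these layers moves the luminal contents. A smooth muscle cell contracts when the myosin light chain is phosphorylated and the myosin thick filament pulls on actin thin filaments, which are anchored to dense bodies and to a mesh of desmin intermediate filaments. Many contractile genes of smooth muscle are under serum response factor (SRF) and its cofactor myocardin, and SRF binds the CArG box. Succinate given in drinking water is known to engage tuft cells and a type 2 immune response in the mouse small intestine, and type 2 cytokines act on gut smooth muscle as well.

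Promoter sequences are shown for Acta2 and Myl9 because these were the members whose upstream bases held a CArG box in the search described next. RefSeq promoters (GRCm38.p6) were at hand for 7 members (Acta2, Des, Cnn1, Myl9, Synpo2, Smtn and Lmod1) and not for Actg2, Myh11 and Tagln. The 250 bases before the annotated start were searched for the CArG box, once with all 6 inner bases A or T and once allowing 1 inner C or G; both forms read the same on either strand. The strict form was in 1 of the 7 members' promoters and in 1.47% of all 32851 promoters, and the relaxed form in 2 of the 7 and in 8.59% of all. Both Acta2 and Myl9 held 2 boxes of the relaxed form, as did 0.67% of all promoters. In Acta2 (chr19:34255374-34255623, minus strand) the boxes span bases 84 to 75 and 34 to 25 before the start, and each has 1 inner C or G. In Myl9 (chr2:156775214-156775463, plus strand) they span bases 161 to 152, the strict match, and 99 to 90. A match describes letters in this window only and says nothing of SRF binding. Boxes are in capitals.
Acta2: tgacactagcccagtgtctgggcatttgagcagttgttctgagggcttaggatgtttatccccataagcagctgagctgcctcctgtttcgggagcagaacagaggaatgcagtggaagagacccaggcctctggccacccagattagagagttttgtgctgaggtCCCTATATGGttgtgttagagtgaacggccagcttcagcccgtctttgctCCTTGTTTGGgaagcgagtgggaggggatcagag
Myl9: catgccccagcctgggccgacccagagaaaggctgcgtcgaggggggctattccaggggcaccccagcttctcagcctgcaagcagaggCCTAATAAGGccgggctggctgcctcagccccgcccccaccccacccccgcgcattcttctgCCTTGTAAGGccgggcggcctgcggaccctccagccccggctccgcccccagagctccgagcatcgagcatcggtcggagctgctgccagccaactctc

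Total counts were 8080321 to 52824743 per library, and the 10 genes together took 0.161% (95% Wilson interval 0.159% to 0.164%, counting error only) to 0.834% (0.832% to 0.837%) of them. Ptk6 had 7 to 61 counts in each Ptk6-/- library and 284 to 2405 in each wild type library. The library labelled female wild type succinate replicate 2 held transcripts of heart muscle, with a summed FPKM (fragments scaled to exon length and to the mapped fragments of the library) of 5594 over 15 heart genes against at most 38.6 in any other library, and Y-linked transcripts at a summed FPKM of 9.63 against at most 0.102 in the other female libraries. Des is also expressed in heart muscle, so results in female succinate-treated wild type mice are given with and without it. The 18S ribosomal gene Rn18s-rs5 took 51.2% of the counts in male wild type control replicate 1 and 29.7% in male Ptk6-/- succinate replicate 1, which was also the shallowest library. The labels identify separate mice, so the spread within a group is between animals, and fewer muscle cells in a sample cannot be told apart from less RNA per muscle cell.

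All 10 genes were detected in all 24 libraries, with 125 counts (Lmod1) as the lowest single value. Compared per length, the light chain and the actins were the most abundant: mean FPKM over the 24 libraries was 288 for Myl9, 268 for Acta2, 243 for Actg2, 177 for Tagln and 162 for Des. Cnn1 and Myh11 were at 67.8 and 65.8, Smtn at 23.7, Lmod1 at 10.2 and Synpo2 at 3.32. Acta2 stood at rank 149 of all genes by mean FPKM and Synpo2 at rank 7050. Below, levels are TMM-normalized CPM, counts scaled to library size, which compare libraries for 1 gene and do not compare genes. For each gene the 8 groups were ordered by mean CPM, and in that order all 7 pairs of neighbours overlapped in their library values for each of the 10 genes, as they did for 85.0% of all 21694 genes followed. The plot of CPM by group shows every library.

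**Figure D1:**
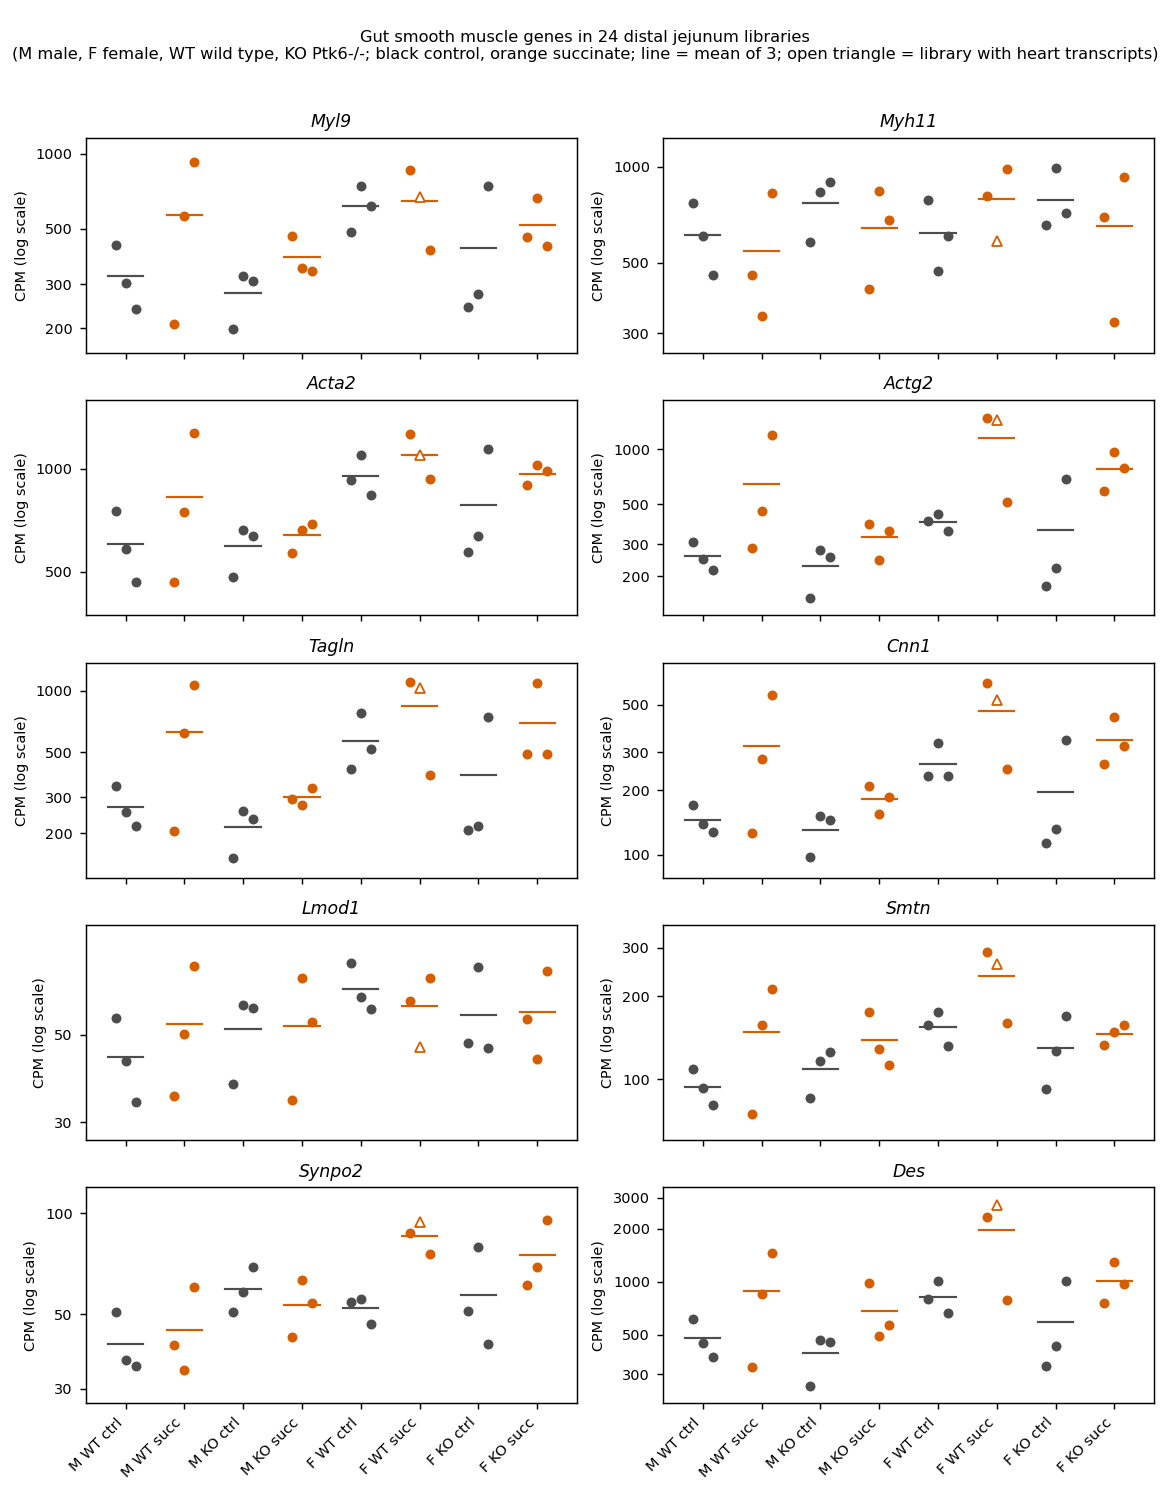
TMM-normalized CPM (log axis) of the 10 smooth muscle genes in each library of the 8 groups, with the mean of 3 mice as a line; M and F are male and female, WT wild type, KO Ptk6-/-, and the open triangle is the library with heart transcripts. Des ran from 258 to 2745 CPM while Lmod1 stayed between 33.8 and 75.8 CPM.

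The thick filament is represented by Myh11 and Myl9. Myh11, the smooth muscle myosin heavy chain (chromosome 16, 14012399 to 14109236, minus strand, GRCm39 as deposited), was at 773, 606 and 457 CPM in male wild type controls, 458, 340 and 830 in male wild type succinate, 580, 836 and 894 in male Ptk6-/- controls and 413, 839 and 681 in male Ptk6-/- succinate, each in order of replicate number. In females it was at 788, 470 and 606 CPM in wild type controls, 811, 586 and 982 in wild type succinate, 654, 990 and 715 in Ptk6-/- controls and 694, 325 and 931 in Ptk6-/- succinate. Its lowest value was therefore in female Ptk6-/- succinate replicate 2, a library in which Tagln was among the highest, and no sex, genotype or treatment was high throughout. Myl9, the regulatory light chain whose phosphorylation starts contraction (chromosome 2, 156617340 to 156623578, plus strand), ran from 198 CPM in male Ptk6-/- control replicate 1 to 930 in male wild type succinate replicate 3.

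Of the thin filament genes, Actg2, Tagln and Cnn1 ranged more widely than the thick filament genes. Actg2, the enteric smooth muscle actin (chromosome 6, 83489887 to 83513247, minus strand), was at 309, 251 and 216 CPM in male wild type controls and 288, 459 and 1197 in male wild type succinate, at 152, 280 and 255 in male Ptk6-/- controls and at 387, 247 and 357 in male Ptk6-/- succinate. In females it was at 404, 441 and 356 CPM in wild type controls and 1496, 1449 and 513 in wild type succinate, at 178, 222 and 684 in Ptk6-/- controls and at 590, 963 and 789 in Ptk6-/- succinate. All 3 wild type succinate females were above all 3 wild type control females, whereas in the other 3 pairs of groups at least 1 succinate library lay within the control range.

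Acta2 (chromosome 19, 34218490 to 34232990, minus strand), the actin of vascular and other smooth muscle, spanned a smaller range of 465 to 1274 CPM. Acta2 and Actg2 have nearly the same coding sequence, and how reads shared between them were counted is not given in the sources used here. Tagln, for the actin-binding protein transgelin (chromosome 9, 45840917 to 45847356, minus strand), ran from 151 to 1103 CPM, and Cnn1, for calponin, which inhibits the myosin ATPase (chromosome 9, 22010512 to 22020926, plus strand), from 97.4 to 629.8. For both the lowest library was male Ptk6-/- control replicate 1 and the highest female wild type succinate replicate 1. Lmod1, a leiomodin that nucleates actin filaments (chromosome 1, 135252545 to 135295803, plus strand), varied least of the 10, by 2.24-fold from lowest to highest. Tagln shares its interval with Pcsk7 and Gm48529 on the opposite strand, which matters only if counting ignored strand.

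Among the genes of attachment and scaffold, Des, for desmin (chromosome 1, 75336973 to 75345223, plus strand), had the widest range. It was at 616, 452 and 375 CPM in male wild type controls, 330, 857 and 1464 in male wild type succinate, 258, 470 and 457 in male Ptk6-/- controls and 987, 491 and 570 in male Ptk6-/- succinate. In females it was at 798, 1005 and 669 CPM in wild type controls, 2344, 2745 and 790 in wild type succinate, 335, 432 and 1013 in Ptk6-/- controls and 762, 1298 and 968 in Ptk6-/- succinate. The highest to lowest fold was 10.7, and 9.10 in the 21 libraries without the 3 that stood apart. Smtn, for smoothelin, an actin-associated protein of contractile smooth muscle (chromosome 11, 3467523 to 3489292, minus strand), ran from 75.2 to 289.7 CPM, and Synpo2, for an actin-binding protein of dense bodies (chromosome 3, 122870168 to 123029745, minus strand), from 34.0 to 95.4 CPM. The Des interval overlaps Gm15179, the Synpo2 interval 3 predicted genes on its own strand and the Smtn interval Gm11947 and Gm11946.

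Within a group of 3 mice the coefficient of variation was large: its median over the 8 groups was 15.7% for Acta2, 20.1% for Synpo2, 21.3% for Smtn, 24.3% for Cnn1, 25.1% for Lmod1, 25.8% for Myh11, 26.8% for Actg2, 27.3% for Myl9, 34.6% for Des and 40.0% for Tagln. It reached 78.6% for Tagln and 77.7% for Actg2 in single groups. Single mice of 1 group thus lay far apart, as male wild type succinate replicates 1 and 3 did at 205 and 1065 CPM of Tagln.

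The 10 genes did not vary as 1 block. Over the 24 libraries the correlation of log2 CPM with the mean of the other 9 genes was 0.96 for Cnn1, 0.95 for Acta2, 0.93 for Des, 0.92 for Actg2 and Smtn, 0.91 for Tagln and 0.89 for Myl9, but 0.52 for Synpo2, 0.44 for Lmod1 and 0.077 for Myh11. Of the 45 pairs the highest correlation was between Tagln and Cnn1 (0.977) and the lowest between Myh11 and Tagln (-0.14), the median being 0.59. Without the library with heart transcripts the pair of Myh11 and Tagln was at -0.13, and over 21 libraries at -0.17. These correlations describe libraries that differ in depth, sex, genotype and treatment, and the division into 7 genes and 3 was made after the values were seen.

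**Figure D2:**
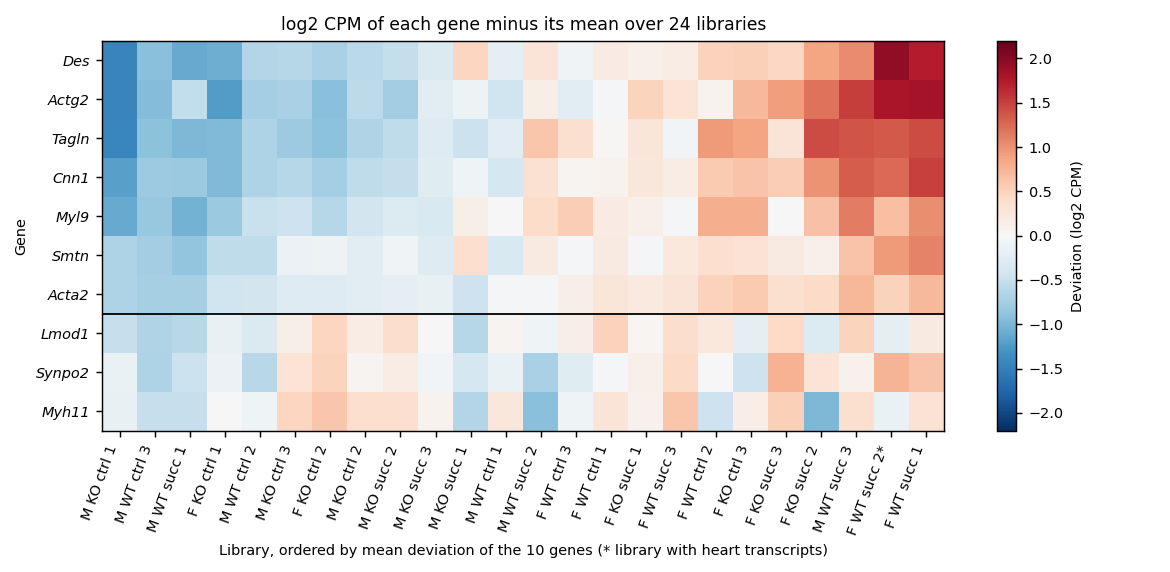
Deviation of log2 CPM from the gene's mean (colour) for the 10 genes (vertical) in 24 libraries (horizontal, ordered by the mean deviation of the 10 genes). The 7 genes above the line change from low to high together, with r of 0.89 to 0.96 to the mean of the other 9, and Lmod1 and Synpo2 (0.44 and 0.52) and Myh11 (0.077) below the line have lower correlations.

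Gene length moved with this division only in part. Length was not taken from annotation: it is the ratio of deposited counts, scaled to the library total, to deposited FPKM, as a median over libraries. The length slope and the length offset used below rest on the same value. Relative to Myl9 it was 11.3 for Synpo2, 6.54 for Myh11, 3.77 for Smtn, 3.40 for Lmod1, 3.23 for Des, 2.35 for Cnn1, 1.89 for Acta2, 1.71 for Tagln and 1.34 for Actg2. The slope of log2 expression on log2 length over all genes of a library ran from 0.63 to 0.92, so libraries differed in how strongly long genes were represented. The correlation of that slope with log2 CPM was -0.76 for Myl9 and -0.67 for Tagln but 0.46 for Myh11 and 0.24 for Synpo2. Length did not order the genes throughout: Smtn, longer than Lmod1, was at -0.53 and Des, nearly as long as Lmod1, at -0.63, whereas Lmod1 was at 0.11. The log2 ratio of Myh11 to Tagln CPM ran from -1.75 in female Ptk6-/- succinate replicate 2 to 2.19 in female Ptk6-/- control replicate 2, and its correlation with the slope was 0.76 over 24 libraries and 0.90 over 21. The part of RNA quality or library preparation in these differences was not tested.

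**Figure D3:**
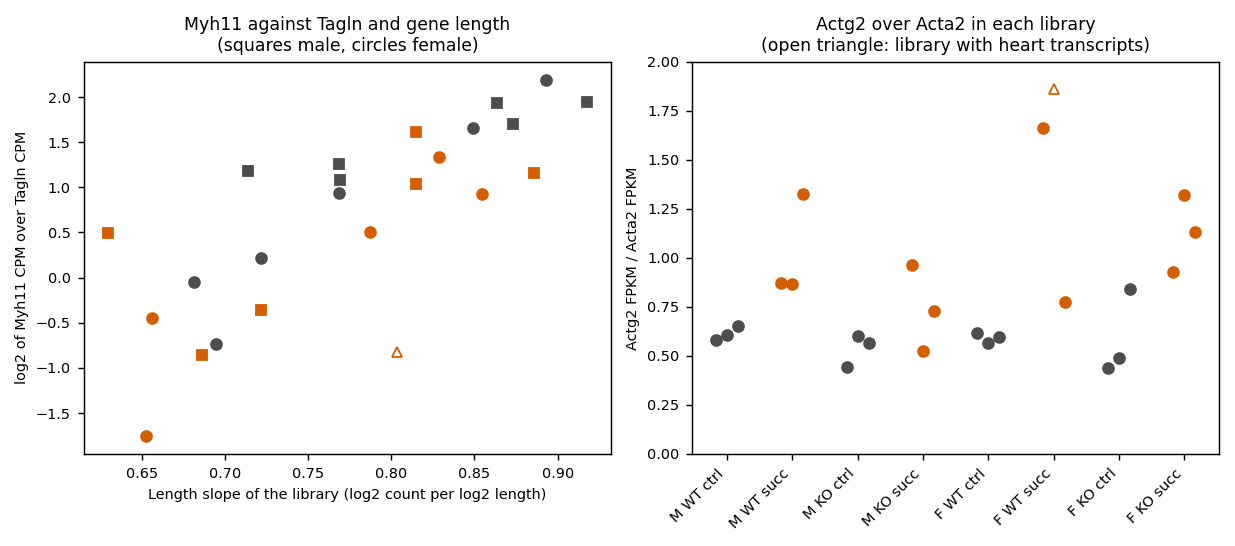
Left, log2 of Myh11 over Tagln CPM against the length slope of each library (squares male, circles female); right, the ratio of Actg2 to Acta2 FPKM by group; black is control, orange succinate, and the open triangle the library with heart transcripts. The left ratio increases with the slope (r = 0.76, 24 libraries), and the right ratio lies between 0.44 and 0.84 in all control libraries and between 0.53 and 1.86 in succinate libraries.

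The succinate comparisons ask whether muscle genes differ between treated and control mice of 1 sex and genotype. No member was called in any of these comparisons by edgeR's quasi-likelihood test, where a call needed a Benjamini-Hochberg adjusted p under 0.05 over all genes tested and a fold change of at least 2. Comparisons of genotype and of treatment share groups of libraries, so they are not independent, and each comparison's own values are given.

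In wild type males 9 of the 10 genes had a higher fitted level with succinate, and the median of their log2 fold changes was 0.72 beside 0.02 over all 19183 genes. Actg2 (1.32, SE 0.51), Tagln (1.21), Cnn1 (1.13), Des (0.86) and Myl9 (0.79) had the largest values and Myh11 (-0.19) the lowest, and the smallest adjusted p was 0.947. With 0 of 10 members called beside 0.0% of all genes, 1 member (Actg2) had an unadjusted p under 0.05 beside 4.07% of all genes, and 0 members had groups that did not overlap beside 9.18%. DESeq2 and limma on log2(FPKM + 1) also called 0 members, each with 3 at an unadjusted p under 0.05 beside 4.37% and 4.73% of all genes. The mice of the succinate group lay apart: Tagln was at 205 CPM in replicate 1, below all 3 controls, and at 619 and 1065 CPM in the others. Without male wild type succinate replicate 1, edgeR called 4 members beside 5.80% of all genes, Tagln (log2 fold change 1.60, adjusted p = 0.017), Cnn1 (1.48, 0.022), Actg2 (1.64, 0.034) and Des (1.23, 0.040). Without replicate 3 the median of the members was 0.24 and Actg2 was at 0.50. limma voom with sample quality weights called 6 members (Cnn1, Smtn, Des, Tagln, Actg2 and Myl9) and 8.11% of all genes, with 8 members at an unadjusted p under 0.05 beside 38.6%. Of the genes of enteric glia, which lie between the muscle layers, 4 of 4 had a higher fitted level with an unadjusted p under 0.05 and none was called (smallest adjusted p = 0.947), at a summed FPKM of 1.82 to 6.23 against 0.544 to 1.297. Of the enteric neuron genes, 10 of 12 had a higher fitted level. Their summed FPKM was 23.7 to 67.9 with succinate. It was 12.7 in control replicate 1, the library with the ribosomal share, and 25.1 and 27.2 in the other controls, both above the lowest succinate library. The part of these cells in the result was not tested.

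In Ptk6-/- males the 10 genes had a median of 0.47 on the log2 scale beside -0.10 over all 18966 genes, and Des had the largest value (0.86). Cnn1, Des, Tagln and Myl9 had all 3 succinate libraries above all 3 control libraries, beside 23.8% of all genes whose groups did not overlap, which makes 4 of 10 members. None was called (0.0% of all genes) and none had an unadjusted p under 0.05 (7.75% of all genes) in edgeR, with 1 in DESeq2 (8.06%) and 0 in voom (13.2%), and the smallest adjusted p was 0.600. On the deposited FPKM scale the direction differed: the median of the members was -0.26, and that of all genes -0.45. Male Ptk6-/- succinate replicate 1, with 29.7% of counts from Rn18s-rs5, had the lowest summed FPKM of the members (347.6), and without it the median log2 fold change of the members was 0.26. Among other lists, heart muscle genes summed to 19.4 to 33.2 FPKM with succinate against 9.79 to 17.9 in controls. Endothelial genes were lower, at 1.46 to 9.89 against 11.1 to 13.8. The part of such cells in the result was not tested.

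In wild type females the median log2 fold change was 0.60 beside 0.03 over all 18872 genes. Actg2 (1.54, SE 0.46), Des (1.26, SE 0.50) and Synpo2 (0.73, SE 0.23) had an unadjusted p under 0.05, 3 of 10 members beside 7.77% of all genes, and the smallest adjusted p was 0.585. Actg2 and Synpo2 had groups that did not overlap, beside 13.1% of all genes, and 0 members were called, beside 0.0%. DESeq2 called Actg2 (log2 fold change 1.54, adjusted p = 0.038) and 0.952% of all genes. Without replicate 3 of the succinate group edgeR called Actg2 (1.92, adjusted p = 0.023) and Des (1.67, 0.049), beside 3.23% of all genes, and both of these results rest partly on the library with heart transcripts. Without that library the median of the members was 0.56, no member was called, and the smallest adjusted p was 1.00. In that fit 2 members had an unadjusted p under 0.05 beside 4.33% of all genes. Actg2, Synpo2 and Myh11, 3 of 10 members, then had groups of CPM that did not overlap, beside 18.2% of all genes for 2 libraries against 3. With it left out Des was at 2344 and 790 CPM and Actg2 at 1496 and 513 CPM in the remaining succinate mice, of which 790 CPM lay within the range of the Des controls and the other 3 values above the control range. Of the fibroblast genes, 7 of 7 had a higher fitted level with succinate and 3 an unadjusted p under 0.05, none was called (smallest adjusted p = 0.550), and their summed FPKM was 106.0, 90.3 and 73.5 against 51.9 to 58.2 in controls. All 5 endothelial genes had a higher fitted level (8.51 to 29.6 against 7.37 to 8.62 summed FPKM), the highest in the library with heart transcripts. Enteric neuron genes had a lower median summed FPKM with succinate (35.8 against 51.6), with overlapping groups. The part of these cells in the result was not tested.

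In Ptk6-/- females the median log2 fold change was 0.33 beside -0.04 over all 19334 genes. Actg2 had the largest value (1.09), followed by Tagln (0.81), Cnn1 (0.78) and Des (0.74), while Myh11 was at -0.30 and Lmod1 at 0.00. No member was called beside 0.0879% of all genes, none had an unadjusted p under 0.05 in edgeR beside 10.7%, and none had groups that did not overlap beside 21.2%, the smallest adjusted p being 0.507. DESeq2 had 1 member at an unadjusted p under 0.05 beside 8.30% of all genes and limma on log2(FPKM + 1) 4 beside 13.3%. Voom called Actg2 (1.63, adjusted p = 0.038) and 1.22% of all genes. The control range was widened by replicate 3, where Actg2 was at 684 CPM against 178 and 222 in the other controls. Without female Ptk6-/- control replicate 3 the median of the members was 0.82 and no member was called, and without female Ptk6-/- control replicate 1 it was 0.20. Of 7 fibroblast genes 6 had a higher fitted level (median 0.52) and none was called (smallest adjusted p = 0.441), with a summed FPKM of 91.7 to 118.0 against 60.8 to 86.7 in controls. Their part in the result was not tested.

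**Figure D4:**
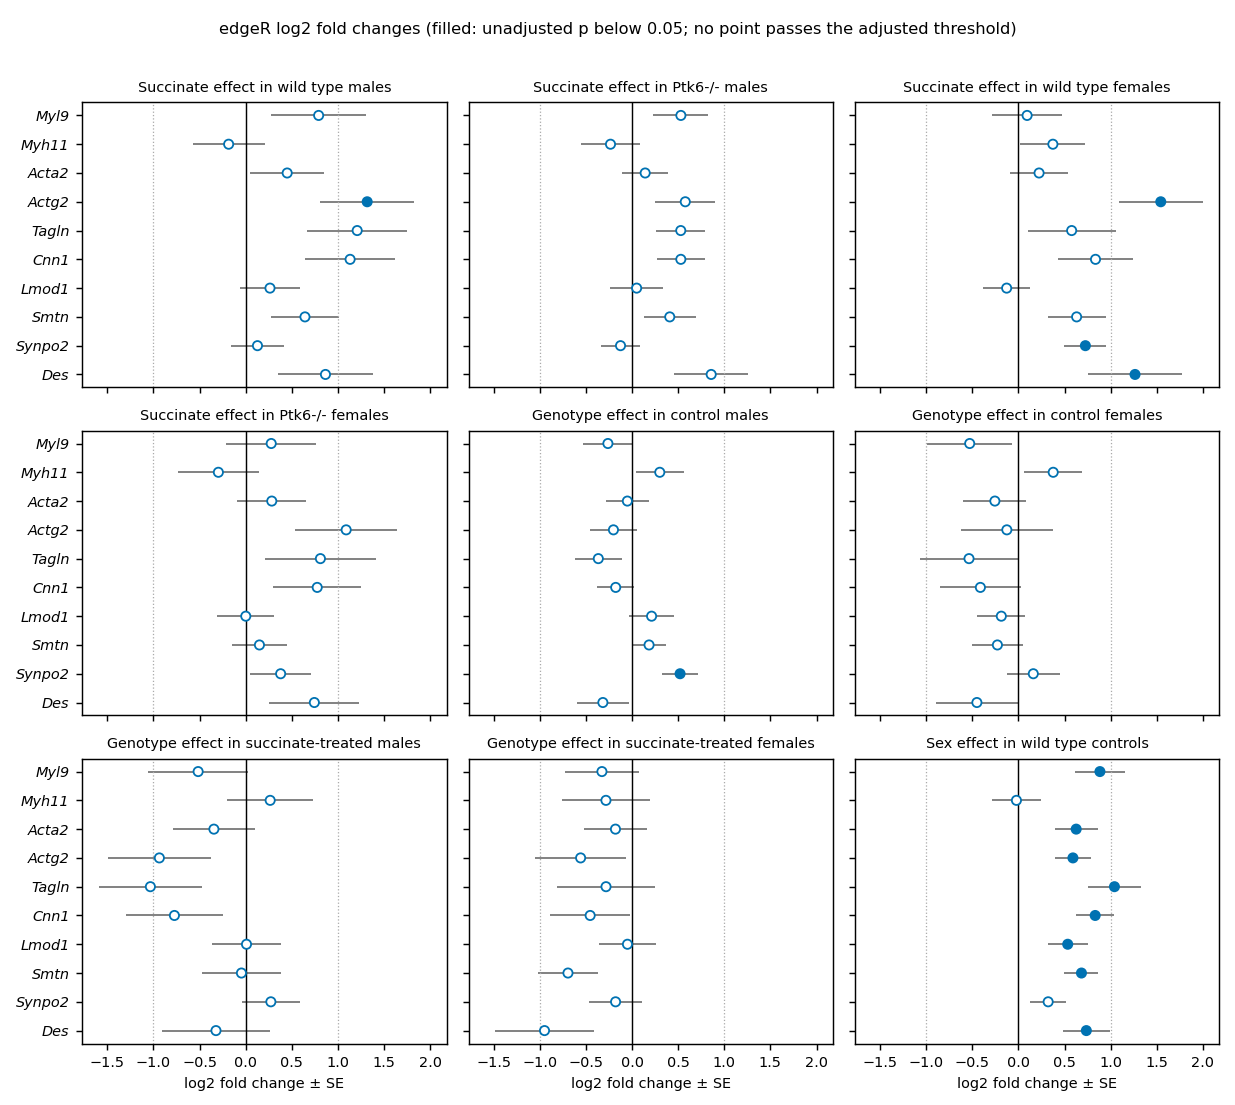
edgeR log2 fold change ± SE (horizontal) of each of the 10 genes (vertical) in the 9 comparisons of 2 groups; filled points have an unadjusted p below 0.05 and dotted lines mark a fold change of 2. No point passes the adjusted threshold, and 8 of 10 points are filled in the comparison of sexes.

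Genotype was compared in each sex and treatment. In control males the genes divided by direction, with Synpo2 (0.52, SE 0.20), Myh11 (0.30), Lmod1 (0.21) and Smtn (0.18) higher in Ptk6-/- and Tagln (-0.37), Des (-0.32), Myl9 (-0.26), Actg2 (-0.20), Cnn1 (-0.18) and Acta2 (-0.05) lower in fitted level. The median was -0.11 beside 0.02 over all 19218 genes, and it turned to 0.12 without male wild type control replicate 1 to 0.047 without male Ptk6-/- control replicate 1, to 0.085 with voom, to 0.11 in the fit of 21 libraries and to 0.33 on the FPKM scale (all genes at 0.25). Synpo2 was at 50.7, 36.6 and 35.2 CPM in wild type and 50.8, 58.4 and 69.3 CPM in Ptk6-/- males, the nearest libraries being at 50.7 and 50.8. It was the only member with an unadjusted p under 0.05 by edgeR or DESeq2 in this comparison (adjusted p = 0.146 in edgeR, 0.034 in DESeq2 and 0.0049 in voom, at a fold change under 2), beside 25.2% of all genes. No member was called beside 0.739%. DESeq2 also called 0, with 1 at an unadjusted p under 0.05 beside 17.1% of all genes, and voom 0, with 4 beside 37.0%. Normalized over these 6 libraries, 0 members had groups that did not overlap, beside 32.7% of all genes.

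In control females 8 of 10 genes had a lower fitted level in Ptk6-/- mice, with Tagln (-0.54), Myl9 (-0.53), Des (-0.45) and Cnn1 (-0.41) lowest and Myh11 at 0.38. The median was -0.24 beside 0.04 over all genes, the smallest adjusted p 0.670, and 0 members were called beside 0.0158% of all genes. None had an unadjusted p under 0.05 in edgeR (11.1% of all genes) or DESeq2, and 0 had groups that did not overlap (18.9%). Here again 1 library decided the count. Tagln was at 412, 780 and 520 CPM in wild type and 208, 216 and 741 in Ptk6-/- controls, and without female Ptk6-/- control replicate 3, a fit that called 9.65% of all genes, edgeR called Tagln (-1.38, adjusted p = 0.031), Myl9 (-1.20, 0.029), Cnn1 (-1.06, 0.031) and Des (-1.05, 0.039). The median of the members was -0.78 in that fit and -0.079 without female Ptk6-/- control replicate 1. limma voom with sample quality weights called Tagln and Myl9, 2 of 10 members beside 10.7% of all genes, with 6 members at an unadjusted p under 0.05 beside 39.5% of all genes. Summed FPKM in Ptk6-/- against wild type was 22.4 to 36.1 against 38.5 to 56.7 for enteric neurons and 5618 to 7539 against 8228 to 8811 for epithelium. Fibroblast genes were higher in Ptk6-/- mice, at 60.8 to 86.7 against 51.9 to 58.2. The part of these cells was not tested.

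In succinate-treated males the median was -0.33 beside -0.03 over all genes, and Tagln (-1.03, SE 0.56), Actg2 (-0.94) and Cnn1 (-0.77) were lowest, but the median was 0.15 with an offset that removes each library's dependence on gene length and 0.18 without male wild type succinate replicate 3. The median was -0.66 without male wild type succinate replicate 1, -0.53 without male Ptk6-/- succinate replicate 1 and -0.84 with voom. No member was called beside 0.0%, none had an unadjusted p under 0.05 in edgeR (2.72% of all genes) or DESeq2, and none had groups that did not overlap (8.83%), with all adjusted p at 1.00. Voom called Cnn1, Tagln, Actg2 and Myl9, 4 of 10 members beside 10.2% of all genes, with 7 members at an unadjusted p under 0.05 beside 37.0%. Enteric glia genes summed to 0.453 to 1.38 FPKM in these Ptk6-/- males against 1.82 to 6.23 in wild type. Heart muscle genes went the other way, at 19.4 to 33.2 against 9.87 to 20.4. The part of such cells was not tested. In succinate-treated females all 10 genes had a lower fitted level in Ptk6-/- mice, from -0.95 for Des to -0.05 for Lmod1, with a median of -0.31 beside -0.03 over all genes. Smtn was at 290, 262 and 160 CPM in wild type and 133, 148 and 157 in Ptk6-/- mice and was the only member of this comparison whose groups did not overlap, beside 10.5% of all genes. No member was called (0.0%) or had an unadjusted p under 0.05 in edgeR (4.52%) or DESeq2, with 2 in voom (12.8% of all genes), and the smallest adjusted p was 0.931. Without the library with heart transcripts the median was -0.36. It was -0.15 without female wild type succinate replicate 1, -0.60 without female wild type succinate replicate 3 and -0.61 without female Ptk6-/- succinate replicate 2.

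The comparison of wild type control females with wild type control males asks how the sexes differ without treatment or disruption of Ptk6. Of the 10 genes, 9 had a higher fitted level in females, with Tagln (1.04, SE 0.29), Myl9 (0.88, SE 0.27), Cnn1 (0.83, SE 0.21), Des (0.74, SE 0.25), Smtn (0.68, SE 0.18), Acta2 (0.63, SE 0.23), Actg2 (0.59, SE 0.20), Lmod1 (0.53, SE 0.22) and Synpo2 (0.32), and Myh11 at -0.02. The median was 0.65 beside 0.02 over all 18979 genes.

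Tagln was at 340, 254 and 216 CPM in males and 412, 780 and 520 in females, and Cnn1 at 170, 139 and 128 CPM in males and 234, 331 and 232 in females. Groups did not overlap for 7 members (Cnn1, Smtn, Des, Tagln, Acta2, Actg2 and Myl9), beside 23.7% of all genes, and 8 members had an unadjusted p under 0.05, beside 15.3%. None was called by edgeR beside 0.0422% of all genes, the smallest adjusted p being 0.249 for Cnn1, Smtn and Tagln, while DESeq2 (adjusted p = 0.011) and voom (0.030) each called Tagln, beside 0.619% and 1.74% of all genes. The members took 0.411% to 0.481% of counts in these females and 0.195% to 0.305% in the males, where replicate 1 holds the ribosomal share named above. Of 12 genes of enteric neurons, 10 had a higher fitted level in females and 7 an unadjusted p under 0.05, but none was called (smallest adjusted p = 0.249). Their summed FPKM was 38.5 to 56.7 in females and 12.7, 27.2 and 25.1 in males, and that of epithelial genes 8228 to 8811 in females and 3007, 7775 and 8028 in males, the lowest of each being the library with the ribosomal share. Of 4 mesothelial genes 3 had a higher fitted level and 3 an unadjusted p under 0.05 (1.37 to 3.53 against 0.437 to 1.18 summed FPKM). Of 4 glial genes all 4 had a higher fitted level and 2 an unadjusted p under 0.05 (1.81 to 2.11 against 0.544 to 1.297). For 6 pericyte genes these counts were 4 and 3 (38.7 to 40.3 against 14.2 to 31.8). None was called in any of these lists. The part of these cells in the result was not tested.

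Whether genotype changed the effect of succinate, or sex the effect of genotype, was tested by interaction terms. In males all 10 interaction values were negative, from -0.75 for Actg2 to -0.02 for Des, with a median of -0.26 beside -0.08 over all genes, but the median was 0.07 with the offset for gene length and 0.13 without male wild type succinate replicate 3. It was -0.58 without male wild type succinate replicate 1, -0.52 without male wild type control replicate 1, -0.48 without male Ptk6-/- succinate replicate 1 and -0.99 with voom. In females the median was -0.17 beside -0.05, with Myh11 lowest at -0.64, but the median was 0.27 without female Ptk6-/- control replicate 3, 0.010 without female wild type succinate replicate 1, 0.033 with voom and 0.21 on the FPKM scale, and it was -0.095 without the library with heart transcripts. For sex by genotype in controls it was -0.22 beside 0.04 and turned to 0.025 without female Ptk6-/- control replicate 1. No member was called in any of the 3 interactions, beside 0.0% of all genes, and none had an unadjusted p under 0.05 in edgeR or DESeq2, beside 3.8% of all genes in males, 6.46% in females and 4.64% for sex by genotype. In voom, which also called 0 members, 7 had an unadjusted p under 0.05 in males beside 16.9% of all genes, 7 for sex by genotype beside 22.9%, and 0 in females beside 9.93%. A difference in the succinate effect between genotypes or in the genotype effect between sexes was thus not called for these genes by edgeR, DESeq2 or voom.

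The ratio of the enteric actin Actg2 to Acta2, which cancels any factor common to both genes, was then examined in FPKM; this ratio was chosen after values were seen and has no test. It was 0.58, 0.61 and 0.65 in male wild type controls and 0.87, 0.87 and 1.33 in male wild type succinate. In females it was 0.62, 0.57 and 0.60 in wild type controls and 1.66, 1.86 and 0.77 in wild type succinate, and 0.44, 0.49 and 0.84 in Ptk6-/- controls and 0.93, 1.32 and 1.13 in Ptk6-/- succinate. In these 3 pairs of groups every succinate library was above every control library, also when the library with heart transcripts (1.86) is left out. In Ptk6-/- males the ratios overlapped, with 0.45, 0.60 and 0.57 in controls and 0.97, 0.53 and 0.73 with succinate. The smallest p an exact permutation of 3 against 3 libraries can give is 0.1. The log2 ratio had a correlation of -0.44 with the length slope and 0.77 with the mean deviation of the 10 genes over 24 libraries (-0.54 and 0.73 over 23).

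Other genes of the contractile system were taken from lists: 12 of the contraction switch (kinases, phosphatases and thin filament regulators such as Mylk and Cald1), 12 of attachment and cytoskeleton, 9 channels and receptors, and 4 for SRF, myocardin and their relatives. None of these 37 genes was called in any of the 12 comparisons. In control males 5 of them had an adjusted p under 0.05 for genotype with a fold change under 2, beside 4.23% of all genes at that threshold, all higher in Ptk6-/-: Vcl, for vinculin (log2 fold change 0.91, adjusted p = 0.030), Ldb3 (0.68, 0.047), Mrtfa, an SRF cofactor (0.66, 0.032), Ppp1r12a, the targeting subunit of myosin phosphatase (0.58, 0.041), and Actn1 (0.57, 0.039). The count of 5 was 0 with a replicate block, with the length offset, on the FPKM scale, with all 24 libraries in 1 fit and without any 1 of replicates 2 and 3 of either group. It was 9 without male wild type control replicate 1, 15 with DESeq2 (9.23% of all genes) and 21 with voom (23.4% of all genes). The share of all genes in the fit without male wild type control replicate 1 is not given here, so the 9 is not read as particular to these genes. In the same comparison the medians were 0.37 for the contraction switch, 0.35 for attachment and 0.30 for channels and receptors, beside 0.02 for all genes and -0.11 for the 10 members. With succinate in wild type females all 12 attachment genes had a higher fitted level (median 0.61), and the summed FPKM of that list was 305 to 456 against 235 to 272 in controls, with none called (smallest adjusted p = 0.617). Without the library with heart transcripts 11 of the 12 had a higher fitted level and the median was 0.50, and the summed FPKM of the remaining succinate libraries was 304.6 and 456. In that library Nexn was at 39.0 FPKM against at most 2.92 elsewhere, Ldb3 at 37.5 against 11.4 and Cav1 at 24.6 against 11.8. The median correlation with the mean of the members over the 24 libraries was 0.54 for attachment genes, 0.09 for the contraction switch, -0.23 for channels and receptors and -0.36 for SRF and its cofactors.

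Of all 21694 genes followed across the 24 libraries, those most like the mean of the 10 members outside the list were Cd59a (r = 0.96), Pdlim7 (0.95), Pcp4 (0.93), Csrp1 (0.91), Chst12 (0.91), Pcp4l1 (0.91), Sh3bgr (0.91) and Fxyd6 (0.91), with a median r over all genes of 0.00 and 0.585% of genes above 0.8. Of the members, 7 ranked within the first 10 by this measure, Synpo2 ranked 2212, Lmod1 3414 and Myh11 8054. Members form part of that mean, so their own values are a description.

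The 10 genes' summed FPKM was set against that of 11 epithelial genes, a ratio of muscle to epithelial transcripts. It was 8.79% to 16.8% in male wild type controls and 14.7% to 34.8% in male wild type succinate. In Ptk6-/- males it was 11.8% to 14.2% in controls and 12.8% to 13.9% with succinate. In females it was 14.7% to 19.3% in wild type controls, 21.4% to 58.0% in wild type succinate, 13.9% to 20.3% in Ptk6-/- controls and 26.9% to 35.3% in Ptk6-/- succinate. In both female genotypes all succinate libraries were above all control libraries on this scale, without the library with heart transcripts (58.0%) as well. In males the groups overlapped, but in wild type males only through control replicate 1 (16.8%), the library with the ribosomal share: the other controls were at 11.3% and 8.79% and the succinate libraries at 14.7%, 15.1% and 34.8%. Epithelial genes were at 4397 to 6869 summed FPKM in female wild type succinate against 8228 to 8811 in its controls. The ratio therefore follows both terms. Its upper term is mostly Myl9, Acta2, Actg2, Tagln and Des, the members with the highest mean FPKM. Myh11, Lmod1 and Synpo2 add less, and the ratio alone does not give the amount of muscle.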

How the data were processed

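Distal jejunum of 24 mice was profiled by RNA-seq. The authors selected poly(A) RNA of integrity number above 7, made stranded dUTP libraries, trimmed with Cutadapt, mapped with HISAT2, assembled with StringTie and estimated expression with StringTie and ballgown, and the build is GRCm39 per the submitters' processing notes. The deposited count values are raw reads per gene (the counting program is not given in the sources used here), and the deposited FPKM values are the authors' estimates per exon length and mapped fragments.

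Counts were tested in R 4.3.3 with edgeR 4.0.16 (quasi-likelihood, TMM) in 12 comparisons, keeping genes that reached 10 counts in 3 or more of the libraries compared. A call needed a Benjamini-Hochberg adjusted p under 0.05 and a fold change of at least 2. The study's methods name DESeq2 for groups. Alternatives were DESeq2 1.42.0, its size factors in edgeR, limma 3.58.1 (voom, and log2(FPKM + 1) or log2(FPKM + 0.1) for genes at a mean of at least 0.5 FPKM), other filters, no fold threshold, a replicate block, an offset that removes each library's dependence on gene length, all 24 libraries in 1 fit, and leaving out each library; a fit of 21 libraries was chosen after seeing the data. The edgeR test was also run on simulated counts built from 1 comparison. Their variation was lower than most members showed within groups, where it reached 78.6%, so this run does not cover such spread. The members and the gene lists were chosen with earlier results of these data known. The genes named are the 10 members, list genes with an adjusted p under 0.05, and the 8 genes outside the list most like the members' mean. Actc1, Nexn and Cav1 were named after their values were seen, Mylk and Cald1 only as examples of a list, and Kit and Etv1 to complete a list. Likeness is Pearson's r of log2 CPM.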

Additional observations from a re-analysis of the deposited data

Results flagged for a closer look

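The library labelled female wild type succinate replicate 2 held heart muscle transcripts that no comparison of the members used, at a summed FPKM of 5594 over 15 genes against at most 38.6 elsewhere. The same library held Y-linked transcripts at a summed FPKM of 9.63, where the other female libraries reached at most 0.102 and the male libraries 1.29 to 12.5. Actc1, the heart actin and a relative of Acta2 and Actg2, was at 4.18 FPKM or more (4.18 to 10.8) in all 3 female Ptk6-/- succinate libraries against 0.519 to 0.958 in female Ptk6-/- controls, with an edgeR log2 fold change of 3.01 (SE 0.51) and an adjusted p of 0.148, while female wild type succinate replicate 1 was higher still, at 14.4 FPKM, and replicate 3 of that group at 0.680. The whole heart list was at 14.9 to 26.8 summed FPKM in female Ptk6-/- succinate libraries and 11.3 to 26.5 in the controls. In Ptk6-/- males Actc1 was at 1.53 to 2.02 FPKM with succinate against 0.666 to 1.06, and the heart list at 19.4 to 33.2 against 9.79 to 17.9. In wild type males Actc1 was at 0.918 to 1.56 against 0.531 to 0.635, and the heart list overlapped (9.87 to 20.4 against 8.57 to 15.1). No explanation of these values was tested. Groups of 3 libraries were too small for the test of single outlying libraries.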

How the results depend on the processing

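The number of members called was 0 in every comparison by edgeR and stayed 0 in 248 of 258 alternative fits. The median of the members moved by no more than the spread between single mice in 219 of 246, and where it moved more, the cause was not tested. That spread is the pooled SD within groups of the members' mean log2 CPM. It is wider than the error of a difference between group means, and some medians changed sign within it. Calls appeared with voom: 2 for genotype in control females, 4 for genotype in succinate-treated males, 6 for succinate in wild type males, 1 for succinate in Ptk6-/- females and 1 for sex, beside 10.7%, 10.2%, 8.11%, 1.22% and 1.74% of all genes, and with DESeq2: 1 for succinate in wild type females and 1 for sex, beside 0.952% and 0.619%. Leaving out 1 library at a time gave 0 to 4 calls for genotype in control females, 0 to 4 for succinate in wild type males, 0 to 2 for succinate in wild type females and 0 in each of the other comparisons. The medians then ranged from -0.78 to -0.079 for genotype in control females, 0.20 to 0.82 for succinate in Ptk6-/- females, -0.36 to 0.27 for the interaction of genotype and succinate in females and -0.69 to 0.025 for that of sex and genotype, the extremes -0.78, 0.82, 0.27 and -0.69 being the fits without female Ptk6-/- control replicate 3. Medians with voom were -0.66 for genotype in control females, -0.65 for genotype in succinate-treated females, 0.16 for succinate in Ptk6-/- males, -0.99 for the interaction in males and -0.77 for sex by genotype. Medians with limma on log2(FPKM + 1), the same with and without the filter, and on log2(FPKM + 0.1), were 0.33 and 0.34 for genotype in control males, -0.26 and -0.27 for succinate in Ptk6-/- males, 0.93 and 0.95 for sex, -1.18 and -1.29 for the interaction in males, 0.21 and 0.22 for that in females, and -0.73 and -0.80 for sex by genotype; FPKM carries no TMM scaling, and the median of all genes was then as low as -0.71 and -1.10 for the interaction in males. Actg2 in that interaction (range -1.10 to 0.074 with 1 library left out) reversed to 0.074 without male wild type succinate replicate 3. In a fit with a replicate block the number of members called was 0 in all 12 comparisons and the median for sex was 0.67. Same-numbered libraries correlated above 0.1 in at most 1 of 3 pairs, so the numbers were not used as pairs. These correlations cannot decide whether the numbers mark a shared harvest or preparation. With the 21 libraries in 1 fit, chosen after seeing the data, 0 members were called. The limits are 3 mice per group, 3 libraries with unusual content, and depth of 8080321 counts in the shallowest, where Lmod1 had 125 counts.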

Other observations

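Beside the members, the lists of other cells of the wall held few calls. Upk3b, a mesothelial gene of the serosa, was higher in Ptk6-/- than wild type control males by edgeR (log2 fold change 1.56, SE 0.32, adjusted p = 0.040), and the 4 mesothelial genes summed to 1.94 to 3.44 FPKM against 0.437 to 1.18. In the same comparison Ano1, a channel of the interstitial cells of Cajal that pace the muscle, had a log2 fold change of 0.74 (adjusted p = 0.037), Abcc9, a pericyte gene, 0.85 (adjusted p = 0.040), and the epithelial keratin Krt18 -0.63 (adjusted p = 0.036), all with a fold change under 2. None of these 4 genes had an adjusted p under 0.05 with a replicate block, with the length offset, with all 24 libraries in 1 fit, or without any 1 of replicates 2 and 3 of either group, and Upk3b was not called without male wild type control replicate 1 either. The 3 genes listed for interstitial cells of Cajal (Kit, Ano1 and Etv1) summed to 5.23 to 11.7 FPKM in female Ptk6-/- succinate libraries and 1.75 to 4.08 in their controls, with no gene called. In wild type females they summed to 3.06 to 3.91 with succinate and 2.01 to 2.36 in controls. In Ptk6-/- males the succinate libraries were lower (0.390 to 2.74 against 3.21 to 4.47), and in wild type males the groups overlapped. The sum is mostly Kit and Ano1, as Etv1 was at most 0.294 FPKM. Genes of exocrine pancreas were at or under 0.286 summed FPKM in every library.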
